A study of Mus musculus with 14 samples.

Results

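The long-chain acyl-CoA synthetase genes Acsl1, Acsl3, Acsl4, Acsl5 and Acsl6 were examined in hearts of male wild-type (WT) C57BL/6 mice aged 68 and 12 weeks, all kept on standard chow. The 5 genes were taken by symbol from a count table of 49315 genes, of which 15947 were expressed highly enough to be tested, all 5 among them. Each age had 4 RNA-seq libraries of total RNA from pulverised heart, and 2 H3K27me3 CUT&RUN libraries with 1 input library. H3K27me3 is a histone mark of Polycomb repression, and CUT&RUN maps it by cutting DNA at the sites an antibody binds. The series title concerns dietary glutamine and cardiac ageing, and the labels of the samples used here name no diet other than chow. The family was chosen by its RNA levels in these same libraries, in which Acsl6 differed between the ages, so the levels of the 5 genes at both ages are given as a description, with no test.

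Long-chain acyl-CoA synthetases join coenzyme A to fatty acids at the cost of ATP. The activated acyl-CoA stays in the cell and can enter mitochondrial oxidation, triglyceride or phospholipids. The enzymes differ in their place in the cell and in the fatty acids they prefer. Studies of knockout mice have shown that ACSL1 carries most of this activity in the heart and supplies oxidation. ACSL3 is known from the endoplasmic reticulum and lipid droplets, ACSL4 for its preference for arachidonic acid and its part in ferroptosis, ACSL5 from intestine, liver and mitochondria, and ACSL6 from brain, where it favours docosahexaenoic acid.

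Libraries held 28842059 to 34599121 counts at 68 weeks, against 23599296 to 31662601 at 12 weeks. All 10 cardiomyocyte markers were detected, and they summed to 69540 to 76600 CPM (counts scaled to library size) at 68 weeks and to 62450 to 71400 CPM at 12 weeks. By edgeR 0 of these 10 were called, with 4 higher and 0 lower at an unadjusted p under 0.05. DESeq2 called 2 of the 10 higher and 0 lower. Airway transcripts were also present. For 20 airway markers the sum was 1287 CPM in 68-week replicate 3 and 18.6 to 29.7 CPM in 68-week replicates 1, 2 and 4, against 1853, 1038, 634 and 64.2 CPM in 12-week replicates 1 to 4. The marker Tppp3 alone had 16.55 to 32.97 CPM at 68 weeks and 27.54 to 34.59 CPM at 12 weeks. It made up most of the sum in 68-week replicates 1, 2 and 4. Adipocyte markers (12 genes) summed to 368 to 627 CPM at 68 weeks and to 720 to 1119 CPM at 12 weeks, so these sums did not overlap. Nor did those of fibroblast markers (2044 to 2462 CPM at 68 weeks and 2710 to 2960 CPM at 12 weeks), brown adipocyte markers (556 to 637 CPM at 68 weeks and 698 to 1027 CPM at 12 weeks) and lymphocyte markers (2.38 to 3.94 CPM at 68 weeks and 4.12 to 10.8 CPM at 12 weeks, 3 of 6 tested called lower by edgeR). Of the 10 fibroblast markers 0 were called by edgeR, and 5 were lower and 1 higher at an unadjusted p under 0.05. DESeq2 called 5 of them lower and 0 higher. Fabp4, the largest adipocyte term, overlapped (264.5 to 389.3 CPM at 68 weeks and 358.0 to 555.1 CPM at 12 weeks). Adipoq did not (2.469 to 10.42 CPM at 68 weeks and 18.17 to 31.45 CPM at 12 weeks). Cox8b, the largest brown adipocyte term, overlapped (436 to 486 CPM at 68 weeks and 450 to 554 CPM at 12 weeks). Ucp1 of that list did not (0.893 to 55.0 CPM at 68 weeks and 64.2 to 368 CPM at 12 weeks). In whole-heart RNA, fewer cells of a type and less RNA per cell cannot be told apart.

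Acsl6 was the family member that stood higher in the older hearts. It was found at 26.99, 27, 29.94 and 25.44 CPM in 68-week replicates 1 to 4 and at 14.14, 15.48, 14.81 and 12.31 CPM in 12-week replicates 1 to 4. Every library at 68 weeks lay above every library at 12 weeks, and 12-week replicate 4 was the lowest of the 8. The means were 27.3 ± 1.88 CPM at 68 weeks and 14.2 ± 1.36 CPM at 12 weeks (SD, n = 4 each), a 1.93-fold difference. The log2 fold change, 68 minus 12 weeks, was 0.95 ± 0.08 (SE of the edgeR fit). The raw counts behind these levels were 749 to 929 at 68 weeks and 341 to 480 at 12 weeks.

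Acsl6 lies on chromosome 11, 54303798 to 54364756, plus strand (mm10 by label), with 9914 bases of annotated exon. RefSeq gives it 3 separate transcript starts in GRCm38.p6, and counts per gene do not show which start the additional transcripts came from. The windows from 250 bases before to 50 after each start are shown because Acsl6 is the member that was higher at 68 weeks and that the authors linked to H3K27me3 regions, and the first start of Acsl1, the most abundant member, is shown for contrast. They lie at chr11:54303574-54303873, chr11:54303954-54304253, chr11:54314653-54314952 and chr8:46470787-46471086, all on the plus strand and printed 5′ to 3′. Capitals mark matches, on either strand, to the GC box GGGCGG and to AGGTCA, the hexamer that many nuclear receptors recognise.
Acsl6 start 1: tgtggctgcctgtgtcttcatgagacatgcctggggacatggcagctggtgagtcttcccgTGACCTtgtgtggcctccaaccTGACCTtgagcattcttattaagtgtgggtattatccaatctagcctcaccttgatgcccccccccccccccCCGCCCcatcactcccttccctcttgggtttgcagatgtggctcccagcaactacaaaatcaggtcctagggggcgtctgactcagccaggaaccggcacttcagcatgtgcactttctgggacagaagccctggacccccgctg
Acsl6 start 2: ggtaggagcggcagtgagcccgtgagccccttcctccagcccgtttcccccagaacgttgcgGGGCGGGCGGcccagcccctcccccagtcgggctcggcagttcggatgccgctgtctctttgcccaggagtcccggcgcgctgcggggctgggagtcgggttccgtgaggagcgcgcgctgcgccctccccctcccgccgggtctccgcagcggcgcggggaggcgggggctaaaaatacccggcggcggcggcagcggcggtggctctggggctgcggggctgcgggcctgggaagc
Acsl6 start 3: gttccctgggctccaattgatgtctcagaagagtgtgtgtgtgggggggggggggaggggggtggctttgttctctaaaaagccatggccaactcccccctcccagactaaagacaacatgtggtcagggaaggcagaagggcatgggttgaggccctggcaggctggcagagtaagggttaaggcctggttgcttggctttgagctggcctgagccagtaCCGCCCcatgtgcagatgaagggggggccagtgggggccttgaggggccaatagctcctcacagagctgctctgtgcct
Acsl1 start 1: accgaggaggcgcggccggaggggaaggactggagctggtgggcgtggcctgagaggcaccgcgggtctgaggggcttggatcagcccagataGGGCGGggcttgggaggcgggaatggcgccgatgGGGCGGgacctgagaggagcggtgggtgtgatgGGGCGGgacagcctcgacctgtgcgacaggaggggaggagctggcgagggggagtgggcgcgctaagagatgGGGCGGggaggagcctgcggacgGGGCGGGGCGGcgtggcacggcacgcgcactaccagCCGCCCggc

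The second Acsl6 start was CpG-rich, with 36 CpG dinucleotides and 76.0% G and C in 300 bases, and the other two Acsl6 windows held 5 and 1 CpG. The median over 32851 RefSeq promoter windows of the same length was 7. The first start of Acsl1 held 30 CpG and its second start 4, Acsl3 and Acsl4 held 33 each, and Acsl5 held 9. The GC box occurred in 6 of the 8 windows of the family and in 35.7% of all windows, with 7 matches at the first Acsl1 start. AGGTCA occurred in 1 of the 8 windows, the first Acsl6 start, with 2 matches, and in 16.3% of all windows. The direct repeat of AGGTCA with 1 base between the copies, the element that PPAR receptors bind with RXR, the E-box CACGTG, bound by clock and other bHLH factors, and TATAAA were searched on both strands too, and 0 of the 8 windows held any of them, against 0.0396%, 7.15% and 13.6% of all windows. The AGGTCA matches counted over all windows include any inside the direct repeat. These are matches of letters in short windows and say nothing of binding.

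Acsl1 was by far the most abundant member at both ages. It had 1305, 1325, 1166 and 1164 CPM in 68-week replicates 1 to 4 and 1235, 1371, 1355 and 1587 CPM in 12-week replicates 1 to 4. The ages overlapped, and 12-week replicate 4 was the highest library. The means were 1240 ± 86.8 CPM at 68 weeks and 1387 ± 147 CPM at 12 weeks (SD, n = 4 each), with a log2 fold change of -0.16 ± 0.08. Without 12-week replicate 4 it was -0.09.

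Acsl4 likewise overlapped between the ages. It had 26.62, 21.23, 25.27 and 23.27 CPM in 68-week replicates 1 to 4 and 27.57, 25.64, 26.99 and 29.50 CPM in 12-week replicates 1 to 4. The log2 fold change was -0.19 ± 0.07, with 68-week replicate 2 the lowest library.

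Acsl5 and Acsl3 were lower at 68 weeks without overlap of the libraries. Acsl5 had 18.64, 18.13, 19.98 and 18.86 CPM in 68-week replicates 1 to 4 and 25.01, 20.79, 20.06 and 23.50 CPM in 12-week replicates 1 to 4, a log2 fold change of -0.24 ± 0.08. The highest library at 68 weeks lay just under the lowest at 12 weeks. Acsl3 had 8.08, 7.64, 8.19 and 5.33 CPM in 68-week replicates 1 to 4 and 10.1, 9.12, 9.21 and 9.31 CPM in 12-week replicates 1 to 4, a log2 fold change of -0.37 ± 0.13. 68-week replicate 4 stood apart below the rest, and without it the log2 fold change was -0.24.

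**Figure D1:**
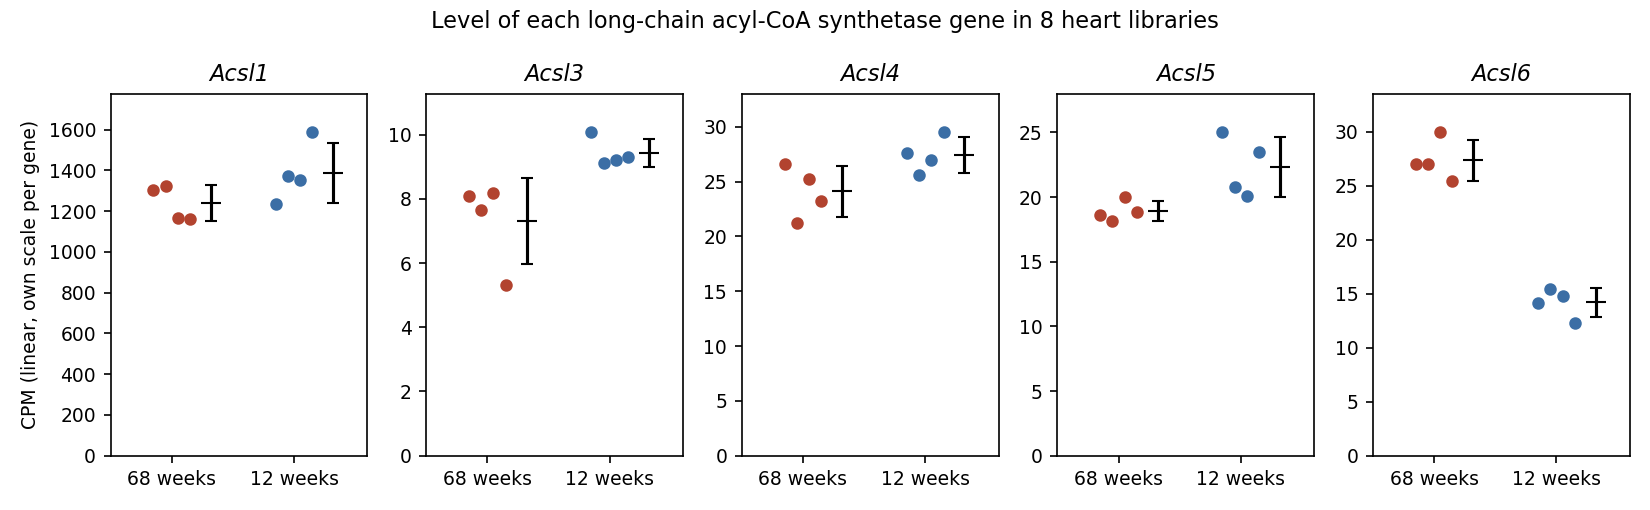
Points show CPM in each of the 4 libraries at 68 weeks (left) and 12 weeks (right) for each gene, and bars beside them the mean ± SD; each panel has its own linear scale starting at 0. Acsl6 has its 4 libraries at 68 weeks between 25.4 and 29.9 CPM, above all 4 at 12 weeks (12.3 to 15.5 CPM), while Acsl1 and Acsl4 overlap between the ages.

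By the edgeR test over all genes at an adjusted p of 0.05, 2.65% of the 15947 genes were called, 1.58% higher and 1.07% lower at 68 weeks. This balance depended on the scaling, with 252 genes higher and 170 lower by TMM, and 179 higher and 232 lower with library size alone. Of the 5 family members 1 was past that threshold, Acsl6, and 4 were not. In 12.1% of all genes tested the libraries of the ages did not overlap, 6.26% higher and 5.86% lower at 68 weeks, as in 3 of the 5 members, 1 higher and 2 lower. Nothing is read from these counts, since the family was chosen by this contrast. The median log2 fold change of the 5 members was -0.19, and that of all genes tested was -0.01.

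Levels of different genes were compared per kilobase of exon. At 68 weeks the order was Acsl1 (118 ± 8.28 CPM per kb), Acsl5 (6.00 ± 0.248), Acsl4 (4.46 ± 0.436), Acsl6 (2.76 ± 0.190) and Acsl3 (1.68 ± 0.308; SD, n = 4 each). At 12 weeks it was Acsl1 (132 ± 14.0 CPM per kb), Acsl5 (7.09 ± 0.735), Acsl4 (5.07 ± 0.296), Acsl3 (2.16 ± 0.100) and Acsl6 (1.43 ± 0.137). No neighbours in either order overlapped in their 4 libraries. Acsl6 was therefore the fourth member at 68 weeks and the fifth at 12 weeks, changing places with Acsl3.

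Acsl1 made up 88.8% ± 1.00 of the summed family level per kilobase at 68 weeks and 89.3% ± 1.20 at 12 weeks. The summed family level was 133 ± 8.17 CPM per kb at 68 weeks and 148 ± 14.0 at 12 weeks, and its range overlapped between the ages. Acsl6 was a small part of it, 1.95%, 1.94%, 2.37% and 2.05% in 68-week replicates 1 to 4 and 1.06%, 1.07%, 1.04% and 0.740% in 12-week replicates 1 to 4. Every share at 68 weeks was above every share at 12 weeks, and the shares of the other 4 members overlapped between the ages.

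Among the 4 members without Acsl1, Acsl6 took 17.7% to 19.2% of the level per kilobase at 68 weeks and 7.62% to 10.4% at 12 weeks. Acsl5 took 38.4% to 42.5% at 68 weeks and 42.5% to 47.3% at 12 weeks, and the ranges met without overlap. Acsl3 took 8.68% to 12.4% at 68 weeks and 13.1% to 14.1% at 12 weeks, and Acsl4 27.7% to 31.9% at 68 weeks and 30.4% to 33.5% at 12 weeks. The summed level of these 4 was 14.9 ± 0.917 CPM per kb at 68 weeks and 15.8 ± 0.919 at 12 weeks, with overlapping ranges.

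**Figure D2:**
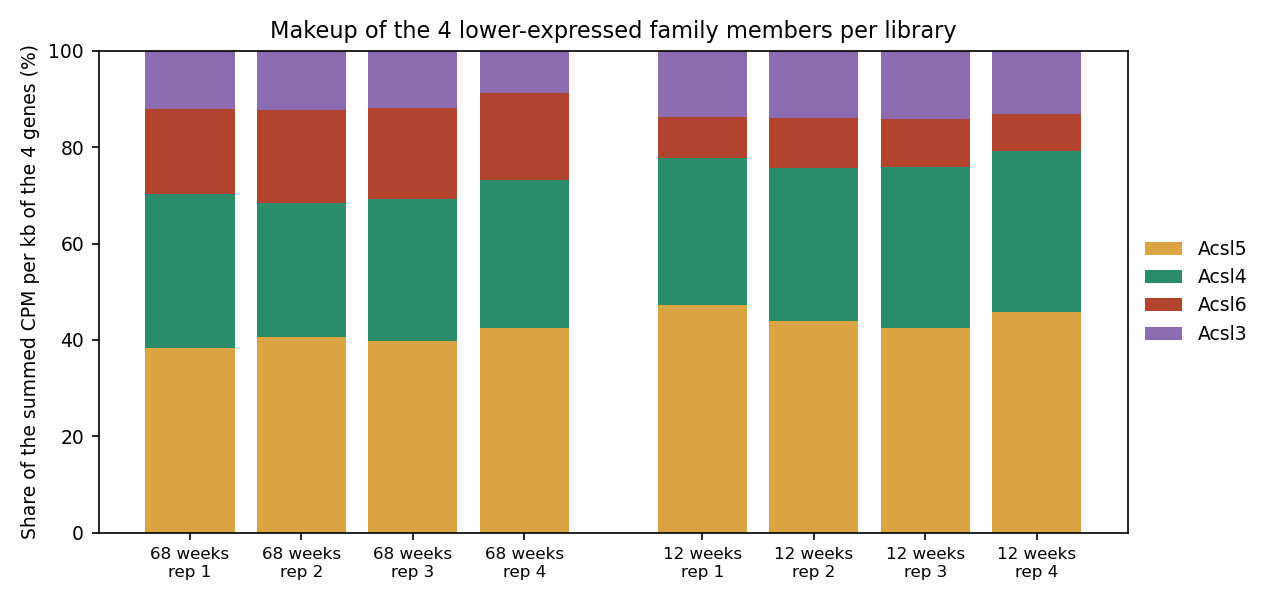
Each bar is 1 library, 68 weeks on the left and 12 weeks on the right, and its segments are the percentage that Acsl5, Acsl4, Acsl6 and Acsl3 take of their summed CPM per kb. The Acsl6 segment spans 17.7% to 19.2% of the bar at 68 weeks and 7.62% to 10.4% at 12 weeks.

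Ratios between members within a library do not depend on the scaling between libraries. For every 100 Acsl1 counts there were 2.068, 2.038, 2.567 and 2.185 Acsl6 counts in 68-week replicates 1 to 4 and 1.145, 1.129, 1.093 and 0.7756 in 12-week replicates 1 to 4. The log2 ratio of Acsl6 to Acsl1 counts was thus 1.11 higher at 68 weeks, and those of Acsl6 to Acsl3, Acsl4 and Acsl5 counts were 1.337, 1.1396 and 1.186 higher. None of the 4 ratios overlapped between the ages.

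Acsl6 was also set beside the airway counts. Its log2 fold change was 1.02 ± 0.11 among the 4 libraries highest in airway counts (68-week replicate 3 and 12-week replicates 1 to 3), and 1.11 ± 0.11 among the 4 lowest in them. Each of these fits has an age with a single library, 68-week replicate 3 and 12-week replicate 4, taken to vary like the others. With the airway marker sum as a term in the model it was 1.06 ± 0.08, and with the adipocyte marker sum it was 0.90 ± 0.17. Acsl1 had -0.18 ± 0.12 in the 4 libraries highest in airway counts and -0.33 ± 0.11 in the 4 lowest, and -0.27 ± 0.08 with the airway term.

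With the adipocyte marker sum in the model the log2 fold changes of Acsl3 and Acsl5 were 0.026 ± 0.23 and -0.035 ± 0.15. Without this term their SE were 0.13 and 0.08. With it Acsl1 had -0.089 ± 0.17 and Acsl4 -0.17 ± 0.17. Of the 12 adipocyte markers 1 fell and 0 rose by edgeR (11 were lower and 0 higher at an unadjusted p under 0.05, and the same numbers by DESeq2), and since their sums separated the ages, the age and the adipocyte markers cannot be told apart for these genes. Fibroblast, brown adipocyte and lymphocyte marker sums separated the ages as well, and their part in these values and in those of the lipid genes described further on was not tested. Among the 4 libraries highest and the 4 lowest in airway counts, Acsl3 had -0.21 and -0.41, Acsl4 -0.08 and -0.31, and Acsl5 -0.14 and -0.34.

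Acsl6 is also known from neurons, erythroid cells and skeletal muscle. The 11 neuron markers summed to 20.3 to 28.2 CPM at 68 weeks and 16.1 to 26.7 CPM at 12 weeks, and the 11 measured erythroid markers to 396 to 8632 CPM at 68 weeks and 963 to 8006 CPM at 12 weeks. The 12 skeletal muscle markers, which include the heart-expressed genes Acta1 and Ckm, summed to 1833 to 3133 CPM at 68 weeks and 1811 to 2163 CPM at 12 weeks, with Myf6 at 0 in all 8 libraries. Each of these sums overlapped between the ages. By edgeR or DESeq2 0 markers of the 3 lists were called (2 were higher and 2 lower at an unadjusted p under 0.05 by edgeR). The muscle sum was mostly Ckm and the erythroid sum mostly Hbb-bs. The part of these cell types in the Acsl6 level was not tested.

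The 6 genes whose profile over the 8 libraries was most like that of Acsl6 were Penk, Rab40b, Camk2b, Slc6a17, Tmem150c and AC149090.1. Likeness was the root mean square difference of log2 CPM after each gene was centred on its mean, taken over 13640 genes whose mean log2 CPM was 0 or more. The difference was 0.09 for Penk and 0.11 for Rab40b, at most 0.14 for the other 4, and 0.50 for the median gene. It was 0.58 for Acsl1 and between 0.59 and 0.69 for Acsl4, Acsl5 and Acsl3. The measure uses the Acsl6 values by which the family was chosen, and it counts a like step between the ages as likeness. The 6 genes had log2 fold changes of 0.82 to 1.08, near the 0.95 of Acsl6. Shared regulation was not tested. Penk, the precursor of enkephalin peptides, had 11.3 ± 1.19 CPM at 68 weeks and 6.26 ± 0.659 CPM at 12 weeks. Camk2b, the beta subunit of the calcium-dependent kinase CaMKII, had 25.1 ± 1.68 CPM at 68 weeks and 13.3 ± 0.410 CPM at 12 weeks. Slc6a17, a vesicular amino acid transporter of neurons, had 12.5 ± 1.62 CPM at 68 weeks and 6.31 ± 0.440 CPM at 12 weeks. Rab40b, a small GTPase gene, had 6.10 ± 0.644 CPM at 68 weeks and 3.38 ± 0.295 CPM at 12 weeks, Tmem150c 17.1 ± 2.70 CPM at 68 weeks and 9.72 ± 1.20 CPM at 12 weeks, and AC149090.1 28.9 ± 3.25 CPM at 68 weeks and 13.6 ± 2.10 CPM at 12 weeks (SD, n = 4 each).

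The 5 members lie on 5 chromosomes. Acsl1 is on chromosome 8 (46471037 to 46536051, plus strand), Acsl3 on chromosome 1 (78657825 to 78707743, plus strand), Acsl4 on chromosome X (142317993 to 142390535, minus strand) and Acsl5 on chromosome 19 (55253369 to 55296627, plus strand), all mm10 by label. Within 200 kb of the members lie 56 other genes, of which 17 were tested, 0 rose and 1 fell by edgeR and by DESeq2 (1 higher and 4 lower at an unadjusted p under 0.05 by edgeR). Around Acsl6, 4 of 14 neighbours were tested. The prolyl hydroxylase gene P4ha2 had a log2 fold change of 0.16 ± 0.08, Fnip1, which encodes a folliculin partner, of 0.00 ± 0.07 and the guanine nucleotide exchange factor gene Rapgef6 of -0.01 ± 0.05, all smaller in size than that of Acsl6.

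The fourth neighbour, Gm12224, lies inside the Acsl6 span on the other strand (54340369 to 54353479) and shares 202 exon bases with it. It had 29, 48, 66 and 61 counts in 68-week replicates 1 to 4 and 36, 29, 20 and 19 counts in 12-week replicates 1 to 4, which overlap (log2 fold change 0.86 ± 0.26, adjusted p = 0.113, edgeR). The gene that fell, Gm45244, lies inside the Acsl1 span near its start (46471391 to 46473590), on the other strand, and shares 1039 exon bases with it. It had 6, 7, 6 and 5 counts in 68-week replicates 1 to 4 and 23, 10, 21 and 23 counts in 12-week replicates 1 to 4 (log2 fold change -1.79 ± 0.35, adjusted p = 0.0247, edgeR). Acsl3 shares 244 exon bases with Utp14b, on the same strand, which had a log2 fold change of -0.30 ± 0.19. Whether the counting used strand is not given in the sources used here, and without strand the reads of a gene and its antisense partner cannot be told apart.

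**Figure D3:**
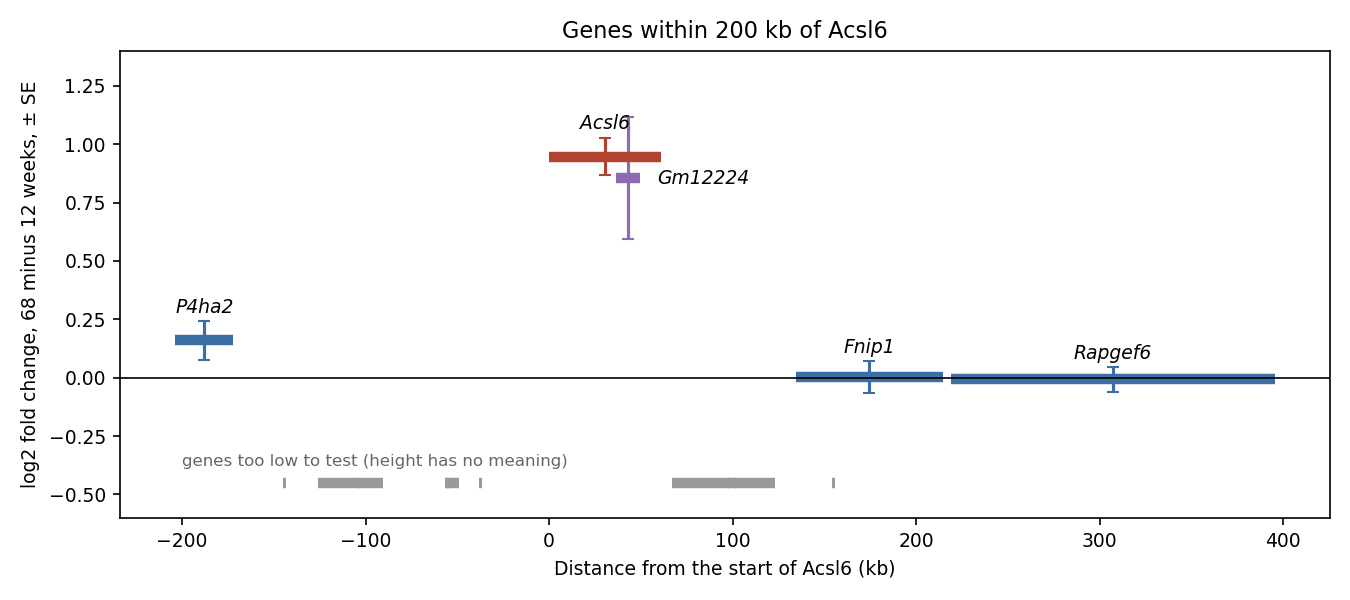
Horizontal bars are the spans of genes within 200 kb of Acsl6, by distance from its start in kb; their height is the log2 fold change, 68 minus 12 weeks, with vertical bars for the SE, and grey bars at the bottom are genes too low to test. Acsl6 (0.95) and Gm12224 inside it (0.86) stand high, and P4ha2, Fnip1 and Rapgef6 lie between -0.01 and 0.16.

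Acsl6 was the member that the authors linked to H3K27me3 regions. In the authors' deposited table of regions unique to 68 weeks it has 2, on chromosome 11 at 54226641 to 54226983 (343 bases) and at 54237284 to 54237576 (293 bases). Their scores in the authors' deposited table, a value per region called enrichment with no stated scale, are 7.22 and 5.91, at rank 301 and 767 of 3433 regions, where the median is 4.77. The second region is linked to Gm12224 as well. Acsl1, Acsl3, Acsl4 and Acsl5 have 0 links in either list, and Acsl6 has 0 in the list of regions unique to 12 weeks. Whether a listed region lacks the mark at the other age was not tested here.

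Of the 15947 genes tested, 3.46% had a link in the 68-week list, 0.997% had 2 or more, and 1.44% had a link in the 12-week list. Among the 551 tested genes with a link in the 68-week list, 18 were called higher, Acsl6 included, and 9 lower at 68 weeks, 3.27% and 1.63% of them. Acsl6 was chosen by this contrast, so nothing is read from its place among the 18. Among the 230 with a link in the 12-week list, 19 were called higher and 3 lower at 68 weeks, 8.26% and 1.3% of them. Over all genes tested the shares were 1.58% higher and 1.07% lower, and the differences between these shares were not tested. Each list was compiled from the libraries of 1 age, with no value per library, so the links carry no replicate error. Read against the gene's span in the count tables, the Acsl6 regions end 76815 and 66222 bases before its start. The genome build of the region coordinates was not established, so whether the regions lie within the gene cannot be said from these files, and no sequence is shown for them.

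Genes around fatty acid activation were then compared in 7 lists of 141 tested genes, of which 4 rose (2.84%) and 8 fell (5.67%) at 68 weeks by edgeR, against the 1.58% and 1.07% of all genes. Their median log2 fold change was -0.05. With the airway marker sum in the model, Fads3 and Lclat1 of these 12 genes stayed called, and with the adipocyte marker sum 0 did, though only 4 genes of the whole table were called in that model. All 12 kept their direction in both.

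Among 15 other acyl-CoA synthetases, 1 rose and 1 fell. Acsm5, a mitochondrial medium-chain synthetase gene, had 19.4, 16.2, 13.2 and 12.0 CPM in 68-week replicates 1 to 4 and 4.92, 7.65, 5.34 and 6.68 CPM in 12-week replicates 1 to 4. Its log2 fold change was 1.31 ± 0.19 (adjusted p = 0.0096, edgeR), larger in size than that of Acsl6, and the libraries did not overlap. Acss3, a mitochondrial short-chain synthetase gene, fell to 2.05 ± 0.331 CPM at 68 weeks, against 5.02 ± 2.08 CPM at 12 weeks (adjusted p = 0.0447, edgeR). The acetoacetyl-CoA synthetase gene Aacs (-0.89 ± 0.20, adjusted p = 0.057, edgeR) and the medium-chain gene Acsm3 (-1.76 ± 0.42, adjusted p = 0.0694, edgeR) did not pass.

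Among 15 genes of fatty acid uptake and binding, 0 rose and 1 fell, Acbd4, which encodes a peroxisomal acyl-CoA-binding protein. It had 8.69 to 12.4 CPM at 68 weeks and 14.3 to 14.8 CPM at 12 weeks (log2 fold change -0.50 ± 0.10, adjusted p = 0.0302, edgeR). Not past the threshold were Fabp4, the fatty acid-binding protein of adipocytes and endothelium (-0.60 ± 0.16), the lipoprotein receptor gene Vldlr (-0.24 ± 0.07) and Dbi, the acyl-CoA-binding protein gene (-0.24 ± 0.08). Of 14 acyl-CoA thioesterases, which reverse the synthetase reaction, 0 were called by edgeR or DESeq2, and 2 were lower at an unadjusted p under 0.05 by edgeR. The smallest p values of that list belonged to Acot4 (-0.50 ± 0.20), Acot3 (-0.47 ± 0.20), Acot11 (-0.17 ± 0.09) and Acot1 (-0.70 ± 0.38). Acot1, Acot3 and Acot4 are close copies in 1 gene cluster, so their counts are uncertain.

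Of 12 genes of the carnitine shuttle, which carries long-chain acyl groups into mitochondria, and its control by malonyl-CoA, 0 were called by edgeR, with 2 lower at an unadjusted p under 0.05 and 1 lower by DESeq2. Acaca, a carboxylase that makes malonyl-CoA, stood at 24.0 to 37.8 CPM at 68 weeks and 46.3 to 97.9 CPM at 12 weeks without overlap (log2 fold change -1.26 ± 0.30, adjusted p = 0.0891, edgeR). Mlycd, which breaks malonyl-CoA down, had -0.24 ± 0.08, the muscle carnitine palmitoyltransferase gene Cpt1b 0.23 ± 0.14 and the cation transporter gene Slc22a4 0.22 ± 0.14.

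Among 32 genes of triglyceride synthesis, storage and lipolysis, 1 rose and 2 fell. G0s2, the inhibitor of adipose triglyceride lipase, rose to 67.5 ± 9.24 CPM at 68 weeks, against 44.4 ± 5.39 CPM at 12 weeks (log2 fold change 0.60 ± 0.11, adjusted p = 0.0271, edgeR). Bscl2, which encodes the lipid droplet protein seipin, had 16.8 to 19.3 CPM at 68 weeks and 22.2 to 28.5 CPM at 12 weeks (-0.48 ± 0.08, adjusted p = 0.0132, edgeR). The droplet hydrolase gene Pnpla3 fell to 1.31 ± 0.141 CPM at 68 weeks, against 2.91 ± 0.906 CPM at 12 weeks (-1.16 ± 0.22, adjusted p = 0.0237, edgeR). Pnpla3 is also among the adipocyte markers, as are Cidec and Fabp4, and with their sum in the model Pnpla3 had -0.31 (adjusted p = 0.966, edgeR). The fat cell droplet gene Cidec did not pass (-1.95 ± 0.45, adjusted p = 0.0819, edgeR).

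Among 28 genes of polyunsaturated phospholipid remodelling and ferroptosis, processes in which ACSL4 and ACSL6 supply acyl-CoA, 2 rose and 1 fell. Lclat1, a lysocardiolipin acyltransferase gene, had 212, 211, 182 and 198 CPM in 68-week replicates 1 to 4 and 121, 131, 125 and 157 CPM in 12-week replicates 1 to 4 (log2 fold change 0.59 ± 0.09, adjusted p = 0.0075, edgeR). Fads3, a member of the fatty acid desaturase cluster, had 96.9, 92.6, 95.9 and 108 CPM in 68-week replicates 1 to 4 and 69.0, 73.7, 71.4 and 73.0 CPM in 12-week replicates 1 to 4 (0.45 ± 0.05, adjusted p = 0.00231, edgeR). For both genes the ages did not overlap. The delta-5 desaturase gene Fads1 did not pass (0.21 ± 0.07, adjusted p = 0.121, edgeR). Chac1, which encodes a glutathione-degrading enzyme, fell close to the threshold (-1.35 ± 0.30, adjusted p = 0.0496, edgeR), with 12-week replicate 1 at 2.45 CPM and the other 3 of that age at 5.31 to 6.68 CPM.

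Among 25 regulators and targets of PPAR, PGC-1 and SREBP, 0 rose and 3 fell. Angptl4, a PPAR target that inhibits lipoprotein lipase, fell to 7.61 ± 1.19 CPM at 68 weeks, against 15.1 ± 3.86 CPM at 12 weeks (adjusted p = 0.0449, edgeR). The lipogenic regulators Mlxipl (-0.43 ± 0.10, adjusted p = 0.0462, edgeR) and Srebf1 (-0.60 ± 0.13, adjusted p = 0.0473, edgeR) fell close to the threshold, and Pdk4, another PPAR target, which inhibits pyruvate entry, did not pass (-0.73 ± 0.18, adjusted p = 0.0852, edgeR). With the adipocyte marker sum in the model, Angptl4 had -0.14 (adjusted p = 0.983, edgeR) and Srebf1 -0.077 (adjusted p = 0.984, edgeR). Of the 12 called genes, Acsm5, Bscl2, Fads3 and Lclat1 were called whichever 1 of the 8 libraries was left out. The other 8 calls depended on single libraries, with a highest adjusted p between 0.0791 (Pnpla3) and 0.142 (Chac1) on leaving 1 out (edgeR). Each was lost without any library other than the following. Acbd4 stayed called without 68-week replicate 1, Angptl4 without 12-week replicate 2, Chac1 without 12-week replicate 1, and Acss3 without 12-week replicate 3 or 4. Mlxipl stayed called without replicate 4 of either age, Srebf1 without 68-week replicate 3 or 4, G0s2 without 68-week replicate 1 or 3 or 12-week replicate 4, and Pnpla3 without 68-week replicate 3 or 12-week replicate 2, 3 or 4.

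**Figure D4:**
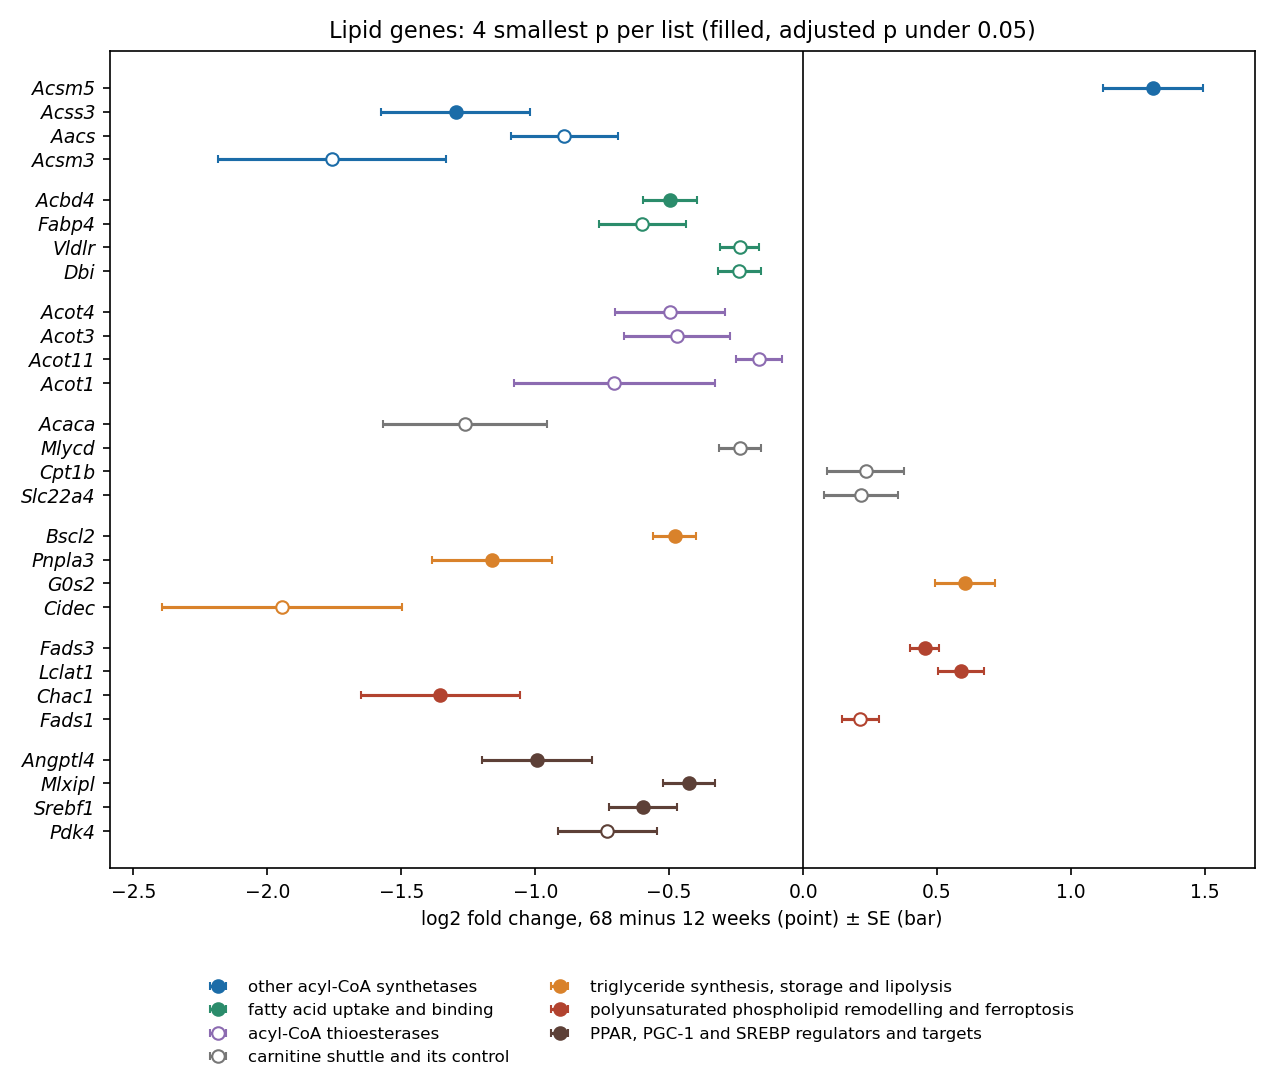
Points are log2 fold changes, 68 minus 12 weeks, of the 4 genes with the smallest p in each of the 7 lists, with bars for the SE; filled points passed an adjusted p of 0.05 (edgeR) and open points did not. Acsm5, G0s2, Fads3 and Lclat1 are the filled points right of 0, and 8 filled points lie left of it.

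Across 18 alternative fits, the log2 fold change of Acsl6 lay between 0.89 and 1.11. Those of Acsl1 (-0.33 to -0.09), Acsl4 (-0.31 to -0.08) and Acsl5 (-0.34 to -0.03) stayed below 0, and that of Acsl3 (-0.43 to 0.03) was above 0 in the 1 fit with the adipocyte marker sum. The family was chosen by this contrast in the same libraries, so the steady direction of Acsl6 is no independent support.

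**Figure D5:**
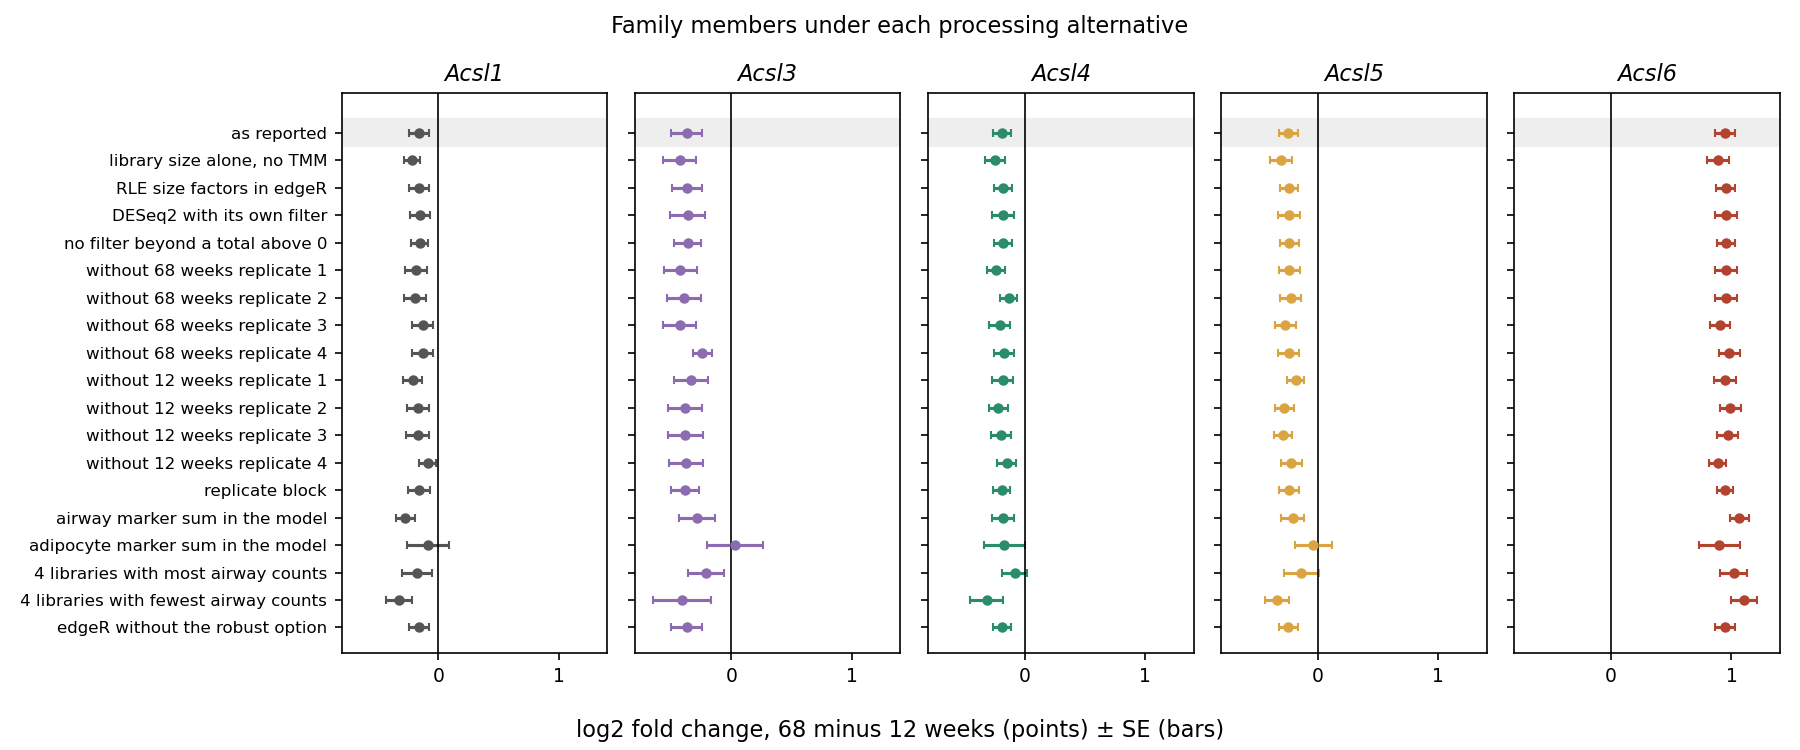
Each row is 1 fit, the reported fit on top, and points with bars are the log2 fold change ± SE, 68 minus 12 weeks, of each family member. Acsl6 stays between 0.89 and 1.11 in the 18 alternatives, and Acsl3 crosses 0 in the fit with the adipocyte marker sum.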

How the data were processed

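The authors deposited reads per gene as raw counts, with gene positions and summed exon lengths per the file headers. The submitters' processing notes name Trimmomatic 0.36, STAR 2.5.2b, featureCounts of Subread 1.5.2 and DESeq2, and mm10. The deposited region lists give a score per region per the file headers, and the notes also name Bowtie2 2.4.2 and MACS3 3.0.0b1. No source used here says how regions were linked to genes. Counts deposited per library matched the series table exactly for all 49315 genes in 8 of 8 libraries, and no pair of one age agreed within sampling noise (lowest chi-square per degree of freedom 17.4).

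The main test was edgeR 4.0.16 in R 4.3.3, the quasi-likelihood test with its robust option, TMM, filterByExpr and age as the only term, with Benjamini-Hochberg adjustment over 15947 genes at 0.05, and was tested on simulated data. The SE was taken as the absolute log2 fold change over the root of the F statistic. CPM uses the TMM library sizes. Separate mice are not stated in the labels, so p-values measure the spread between libraries. Alternatives covered scaling, filter, DESeq2 1.42.0, each library left out, the replicate block, marker sums and airway splits. The fit without the robust option was added after seeing the data. Promoter windows are from RefSeq, GRCm38.p6, and matched all 5 members by symbol. Named genes were the members, the 4 smallest p of each lipid list, called neighbours within 200 kb and the 6 profiles most like Acsl6. The members and lists were chosen with earlier results of these data known.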

Additional observations from a re-analysis of the deposited data

Results flagged for a closer look

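In 6 of 90 groups of 4 libraries examined for family members and named genes, 1 library stood far from the other 3, past Dixon's critical value for 4 samples, where chance gives about 1 in 20. The gap to the nearest library is given for each as a share of the whole range. The share of Acsl5 in the family per kilobase was 5.90% in 12-week replicate 1, the library with the most airway counts, and 4.42% to 4.53% in the other 3 of that age (gap 0.924). The share of Acsl6 was 0.740% in 12-week replicate 4, where Acsl1 was highest, and 1.04% to 1.07% in the other 3 (gap 0.893). Pdk4 had 945 CPM in 68-week replicate 1 and 550 to 612 CPM in the other 3 of that age (gap 0.843). Acot3 had 1.55 CPM in 68-week replicate 4 and 0.993 to 1.01 CPM in the other 3 (gap 0.971). Pnpla3 had 1.52 CPM in 68-week replicate 3 and 1.22 to 1.26 CPM in the other 3 (gap 0.858). Acot11 had 51.3 CPM in 12-week replicate 4 and 39.6 to 41.5 CPM in the other 3 (gap 0.842).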

How the results depend on the processing

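The counts of genes called depended on the processing. The direction of Acsl6 did not, but Acsl6 was chosen by this contrast and its libraries did not overlap between the ages. These fits could therefore hardly have turned it. At 68 weeks 252 genes were higher and 170 lower. Library size alone, without TMM, turned the balance to 179 and 232, with the 12 called lipid genes still called. DESeq2 gave 564 and 436, no filter 411 and 272, the airway term 86 and 28, the adipocyte term 3 and 1, the 4 libraries highest in airway counts 25 and 5, and the 4 lowest 17 and 34. Leaving out 1 library gave 130 to 253 higher and 56 to 168 lower. Of the 141 lipid genes 4 were higher and 8 lower. DESeq2 gave 18 lower, no filter 4, the airway term 2 higher and 0 lower, and the adipocyte term 0 and 0. Leaving out 1 library gave 3 to 4 higher and 1 to 4 lower. The cause was not tested. Acsl1 (-0.33), Acsl4 (-0.31) and Acsl6 (1.11) moved by more than the spread within an age among the 4 libraries lowest in airway counts, and Acsl3 (0.026) and Acsl5 (-0.035) with the adipocyte term. Leaving out 1 library gave -0.21 to -0.09 for Acsl1, -0.43 to -0.24 for Acsl3, -0.24 to -0.13 for Acsl4, -0.29 to -0.18 for Acsl5 and 0.89 to 0.99 for Acsl6. The share of Acsl6 was 1.1 percentage points higher at 68 weeks per kilobase and by counts alike, and the shares of the other 4 members were lower on both scales, though their levels differ between the scales (Acsl5 at 68 weeks 4.53% per kilobase and 1.44% of counts). Region links were the same by gene name and within 100 kb of the spans in the count tables. The build of the region coordinates was not established, so this is no check of the links.

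The replicate numbers were tried as a replicate block, which gave 159 genes higher and 81 lower, and 4 and 2 of the lipid genes. It gave Acsl6 0.95. The labels do not say that a number marks shared mice or days, and deviations of same-numbered libraries correlated at -0.24, -0.04, 0.04 and 0.33, with 1 of the 4 numbers at 68 weeks matching its own best.

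Of 504 values of the 28 named lipid genes under alternatives, 7 turned direction, none of a gene that was called. With the adipocyte term they were Acaca (0.074), Acot11 (0.036), Acsm3 (0.0058) and Fabp4 (0.12), itself the largest part of the adipocyte sum. Among the 4 libraries highest in airway counts it was Acot11 (0.043). Among the 4 lowest they were Cpt1b (-0.067) and Slc22a4 (-0.021). In 105 a call was lost and in 15 one was gained. Acsl3, with 179 to 342 counts a library, is the member whose precision counting limits most.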
